A study of Homo sapiens with 4 samples.

Results

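Ribosome biogenesis is the assembly line that starts in the nucleolus, where RNA polymerase I copies the ribosomal RNA genes, small nucleolar ribonucleoproteins modify the transcript, and a large set of assembly factors folds, cuts and exports the future ribosomal subunits. It is among the costliest processes of a dividing cell, and many of its genes are known targets of the transcription factor MYC. The values of 56 genes of this pathway are described here: RNA polymerase I and its factors, the box C/D and box H/ACA ribonucleoproteins, nucleolar phosphoproteins, and the assembly factors of both subunits. The genes were chosen as a list of symbols, with earlier results of these data known, and matched to the array's Entrez-numbered features. Of the 56 genes, 55 had a feature, among 23786 features in all. The expression of PPAN, a large-subunit assembly factor, was not analysed here, though its promoter is among those searched below.

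The arrays hold RNA of U87, an established human glioblastoma line, grown throughout in DMEM with 10% fetal bovine serum. Each of 4 arrays holds 1 condition: cells given vehicle over 24 hours, cells given 2 µM crizotinib over the same time, cells kept drug-free for 21 days, and cells kept for 21 days in 1 µM crizotinib, a drug that blocks the kinase activity of MET, ALK and ROS1. The labels name the 21-day cultures crizotinib-sensitive and crizotinib-resistant, and the sign of each 21-day difference rests on reading the sensitive culture as the drug-free one, because the protocol gives both arms the same culture name. No condition was repeated, so no difference between a crizotinib array and its own control has a replicate error, and precision is limited by how few arrays there are. Values are log2 expression, and a difference of -1 is a halving.

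The array medians over all features lay between 4.92 and 4.98, and the distributions of the arrays were nearly equal, so each value is relative to the other genes of its array and says nothing of the total RNA per cell. In RNA of a whole culture, fewer cells with a transcript and less of it per cell cannot be told apart. Of 9 markers fixed for glial and glioblastoma cells, 5 reached the median of all values (4.96) in every array, while GFAP, S100B, SOX2 and OLIG2 lay below it in every array. None of the 5 leukocyte markers reached that median, and KDR was the 1 endothelial marker of 4 that did. Of 5 epithelial markers KRT8 reached it in every array and EPCAM in the 24-hour crizotinib array. The 5 fibroblast markers had a mean level of 5.96 in vehicle, 6.56 in 24-hour crizotinib, 6.30 in the 21-day control and 8.16 in 21-day crizotinib, with PDGFRA and DCN below the median except in the last array. DCN differed by 5.02 and LUM by 2.54 at 21 days. Of the 5 fibroblast markers, 4 were at least 2-fold higher at 21 days and 1 was at least 2-fold lower, at -1.16. Among 12450 features whose higher array of that pair reached the median of all values, 494 were at least 2-fold higher and 508 lower. The part of the fibroblast markers' source in the 21-day values of the members was not tested.

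Some short sequences that played no part in the choice of the members were more frequent in their promoters than in all promoters, though none was found in most of them. RefSeq's table (GRCh38.p14) holds promoters, 250 bases before to 50 after an annotated start, for 47 of the 56 genes, in 58 entries. The E-box CACGTG, the core sequence that MYC with its partner MAX is known to bind, was found in 20 of the 58 entries (34.5%). The same 6 letters, which read alike on both strands, stood in 7.26% of all 35116 promoters in the table and in 9.51% of the 13993 promoters of protein-coding genes that reached the median of all values in any array. The ETS motif CCGGAAG, searched on both strands, was found in 24 of the 58 entries (41.4%), against 10.3% of all promoters and 16.6% of those of the protein-coding genes just named. A part of the NRF1 site, GCATGCGC, stood in 3 of the 58 (5.17%, against 3.05% of all and 4.70% of the protein-coding ones, near the background), and a part of the BANP site, CTCGCGAG, also in 3 (5.17%, against 1.02% and 1.83%). A match says only that the letters are there.

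The E-boxes sat close to the start of transcription: 18 of the 22 found lay between 60 bases before and 50 bases after it, and 13 began after it. The ETS motifs lay mostly just before the start, 21 of 33 beginning within the 60 bases before it. A palindromic match, as in NOP16 below, is counted on each strand. A site that overlapping entries share is counted in each, so an ETS site in RRN3 counts both before and after a start. The stretches below run from 60 bases before to 24 bases after the annotated start, and capitals mark the E-box or the ETS motif. They are shown because they belong to genes with large differences in the arrays (NOP16, NOC2L and MRTO4 at 24 hours, FBL and UTP20 at 21 days), and UTP4 because its stretch holds both motifs. Other members carry both too, among them NOP10 and FBL, whose ETS motif, at -193 from the start, lies outside its stretch.

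NOP16, ETS motif on both strands, chr5:176388575-176388658, minus strand: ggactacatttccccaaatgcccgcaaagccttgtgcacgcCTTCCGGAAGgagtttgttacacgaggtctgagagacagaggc
NOC2L, ETS motif, chr1:959233-959316, minus strand: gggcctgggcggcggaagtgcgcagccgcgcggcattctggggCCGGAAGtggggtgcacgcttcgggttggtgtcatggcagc
MRTO4, E-box, chr1:19251745-19251828, plus strand: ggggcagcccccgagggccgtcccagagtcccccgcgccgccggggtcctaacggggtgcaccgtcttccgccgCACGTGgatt
FBL, E-box, chr19:39846356-39846439, minus strand: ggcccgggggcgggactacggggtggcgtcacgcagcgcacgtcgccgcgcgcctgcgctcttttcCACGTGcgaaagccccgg
UTP20, E-box, chr12:101280045-101280128, plus strand: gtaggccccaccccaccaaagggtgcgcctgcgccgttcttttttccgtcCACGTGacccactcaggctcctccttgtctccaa
UTP4, ETS motif and E-box, chr16:69132589-69132672, plus strand: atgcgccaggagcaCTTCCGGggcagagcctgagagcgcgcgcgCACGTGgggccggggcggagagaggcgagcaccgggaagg

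Members with and without an E-box had similar median differences. The 19 measured members with an E-box had a median difference of -0.53 at 24 hours and -0.41 at 21 days, and the 27 measured members whose promoter entries lack it had -0.52 and -0.41. For the ETS motif the medians were -0.62 (21 members) and -0.49 (25 members) at 24 hours, and -0.41 in each group at 21 days. Neither comparison was tested, and the part of any factor that binds these motifs was not tested.

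After 24 hours of 2 µM crizotinib the pathway was lower almost throughout. Of 55 measured members, 54 were below their vehicle value, against 49.9% of the 12468 features whose higher array reached the median of all values, a level filter that all 55 passed. The median difference was -0.53, which is 69.3% of the vehicle level, and the quartiles of the members were -0.77 and -0.38, while the median over all features was -0.01. At least 1.5-fold lower were 23 members (41.8%), against 8.75% of features, and 5 members were at least 2-fold lower (9.09%), against 2.13%. No member was 1.5-fold higher. IMP3, a small-subunit processome protein that pairs with the U3 small nucleolar RNA, was the 1 member above its vehicle value, at 0.10.

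After 21 days in 1 µM crizotinib most members were again lower, by somewhat smaller differences. Below their own control were 51 of 55, against 51.4% of 12450 features, and the median difference was -0.42, or 74.6% of the control level. At least 1.5-fold lower were 17 members (30.9%), against 11.2% of features. The share at least 2-fold lower did not stand above the background: 1 member, FBL (1.82%), against 4.08%. RRP12, RRN3, IMP3 and NOP10 were above their control, by 0.14 to 0.36.

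**Figure D1:**
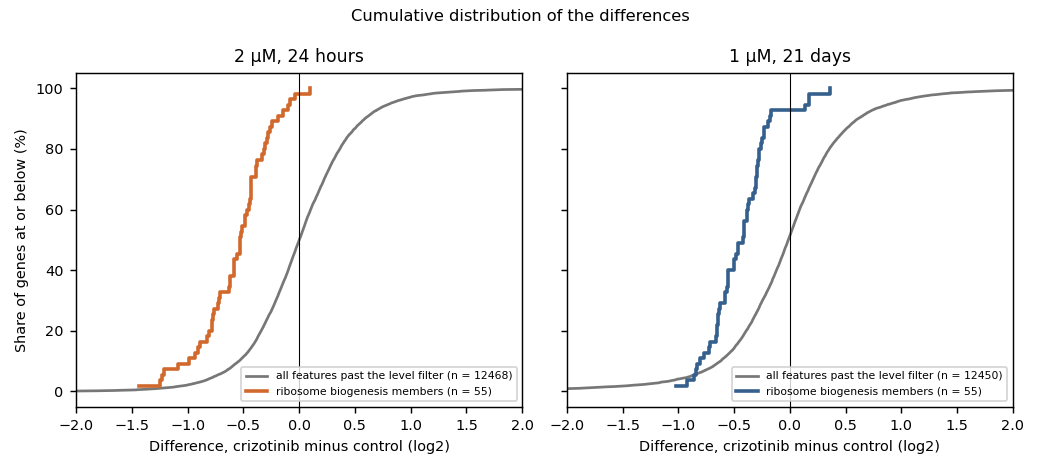
Cumulative share of genes (vertical axis, %) at or below each log2 difference between crizotinib and its own control (horizontal axis), for the 24-hour pair (left) and the 21-day pair (right). The coloured line holds the 55 measured ribosome biogenesis members and the grey line all features past the level filter (12468 and 12450). The member line lies left of the grey line through most of its range and crosses 0 with 54 members below it at 24 hours and 51 at 21 days, and in the 21-day panel the lines meet at the low end, where 1 member was at least 2-fold lower.

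The pairs share no array, and 51 of 55 members were below 0 in both, against 32.3% of the 11873 features past the level filter in both. Members at least 1.5-fold lower in both pairs numbered 10 (18.2%), against 4.15% of those features. They were NOC2L, NOP16, BOP1, MRTO4, RRS1 and DDX56 of the large-subunit factors, NOLC1 and POLR1E of the polymerase I group, FBL and DKC1. A further 13 members passed 1.5-fold lower at 24 hours alone (4.78% of features) and 7 at 21 days alone (7.12% of features), and the difference between the pairs was not tested. In 44 members (80.0%) both crizotinib arrays lay below both untreated arrays, which held for 20.9% of the 13045 features with any array at the median or above. IMP3 had both crizotinib arrays above both untreated ones, as had 18.4% of features, and the ranges of the remaining 10 overlapped. The size of the 24-hour and the 21-day difference was correlated across members to the same degree as across all features past the filter (Pearson's r = 0.45 over 55 members and 0.44 over 11873 features, Spearman's rho = 0.39 and 0.36). Genes on the same arrays are not independent.

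**Figure D2:**
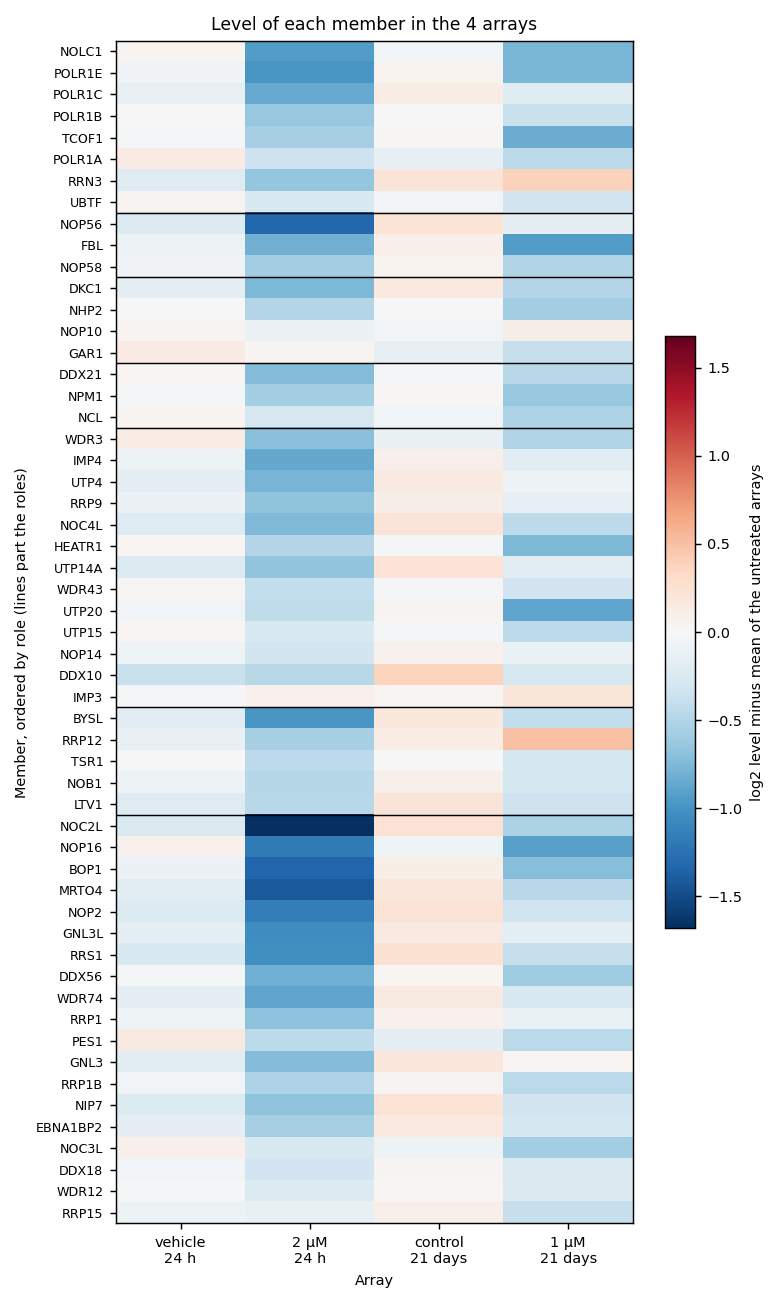
Heat map of the 55 measured members (rows, grouped by role, with lines between roles) in the 4 arrays (columns). Colour is the log2 level minus the mean of the 2 untreated arrays, blue for lower and red for higher. Blue fills most of both crizotinib columns and is deepest for the large-subunit factors NOC2L, MRTO4 and BOP1 at 24 hours, while RRP12 and RRN3 are red in the 21-day crizotinib column.

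By array, 39 of 55 members had their lowest value in the 24-hour crizotinib array, against 27.9% of the 13045 features. The 15 members lowest in the 21-day crizotinib array were near the background, 29.6% of features. The highest value lay in the 21-day control in 38 members, against 24.6% of features. The untreated cultures differed too. The 21-day control was above vehicle in 41 members (74.5%), against 53.5% of features, with a median of 0.13. Its excess reached 1.5-fold in 1 member, DDX10 (1.82% of members, against 6.09% of features). The choice of control therefore bears on the 21-day values: set against the vehicle array, 45 of 55 members were below 0 in the 21-day crizotinib array (50.3% of features) and the median was -0.28. The 24-hour crizotinib array set against the 21-day control had 53 of 55 members below 0 (51.8% of features) and a median of -0.69.

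Proliferation markers were also lower in both crizotinib arrays. The mean level of MKI67, TOP2A and PCNA was 9.71 in vehicle, 8.95 in 24-hour crizotinib, 9.74 in the 21-day control and 7.58 in 21-day crizotinib, so that their difference was the larger one at 21 days, whereas the members' median was lower at 24 hours. Their part in the members' values was not tested. MYC differed by -1.47 at 24 hours and by -0.65 at 21 days, with levels of 8.13 in vehicle, 6.66 in 24-hour crizotinib, 8.21 in the 21-day control and 7.56 in 21-day crizotinib. Of the antagonists that compete with MYC for MAX, MXI1 was higher by 1.15 and 1.72 and MXD4 by 0.59 and 0.57. MAX itself differed by 0.30 and 0.33. The 13 genes of the MYC network as a whole were split, with medians of 0.08 and -0.01. At 24 hours 5 were below and 8 above 0, and at 21 days 7 below and 6 above, against 49.9% and 51.4% of features below 0. The part of MYC and these genes in the members' values was not tested.

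In limma, with the untreated arrays taken as one control group and 1 residual degree of freedom, 0 of the 55 members passed an adjusted p of 0.05 in the 24-hour comparison, where 0% of 11891 features were called lower, and 0 passed in the 21-day comparison, where 1.14% were called lower. A fit that set the crizotinib arrays against their controls in both pairs, with pair as a covariate, also called 0 members and 0% of features lower. At an unadjusted p of 0.05, 27 members were lower at 24 hours (49.1%, against 8.45% of features), 11 at 21 days (20.0%, against 9.01%) and 25 over both pairs (45.5%, against 7.71%), and none was higher. The smallest adjusted p (limma, Benjamini-Hochberg) among members belonged to FBL at 21 days, 0.149 for a difference of -0.93 (SE 0.23), to NOC2L at 24 hours, 0.173 for -1.68 (SE 0.29), and to NOP16 over both pairs, 0.168 for -1.04 (SE 0.21). The members are therefore described by size, and no single member's difference is called.

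**Figure D3:**
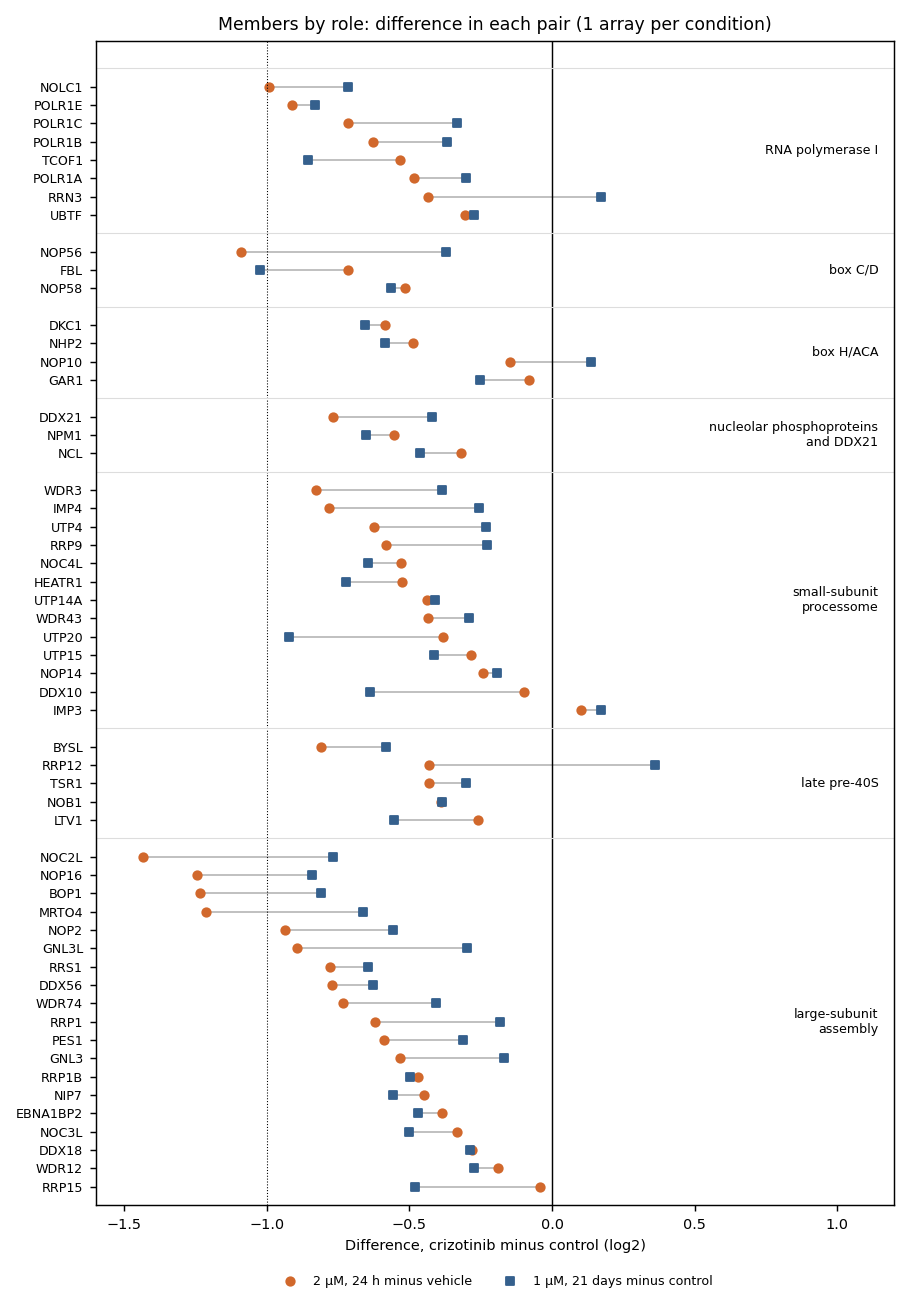
Log2 difference between crizotinib and its own control (horizontal axis) for each of the 55 measured members, grouped by role. Orange circles are 2 µM for 24 hours minus vehicle and blue squares 1 µM for 21 days minus control, with 1 array per condition, a grey line joining the values of a gene and a dotted line at -1. Circles of the large-subunit group reach furthest left, down to -1.44 for NOC2L, and RRP12, RRN3, NOP10 and IMP3 are the members with a square right of 0.

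RNA polymerase I and its factors had a median of -0.58 at 24 hours and -0.35 at 21 days. Below 0 were 8 of 8 and 7 of 8 members, against 49.9% and 51.4% of features. NOLC1, a nucleolar phosphoprotein that works with treacle around polymerase I, measured 9.16 in vehicle and 8.16 in 24-hour crizotinib, then 9.05 in the 21-day control and 8.34 in 21-day crizotinib. POLR1E, the polymerase subunit also called PAF53, measured 7.54 and 6.63 in the first pair and 7.66 and 6.83 in the second. Both genes were low in both crizotinib arrays, and the 21-day control differed from vehicle by -0.10 for NOLC1 and 0.13 for POLR1E. The subunits of the catalytic core differed by less: POLR1A, the largest subunit, differed by -0.48 and -0.30, and POLR1B, the next largest, by -0.63 and -0.37. POLR1C, a subunit shared with RNA polymerase III, differed by -0.72 and -0.33. UBTF, the factor that keeps ribosomal RNA genes open, had the smallest difference of the group at 24 hours, -0.31, and was at -0.27 at 21 days.

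TCOF1 and RRN3 had opposite orders between the pairs. TCOF1, the nucleolar scaffold treacle, measured 7.89 in vehicle, 7.36 in 24-hour crizotinib, 7.93 in the 21-day control and 7.07 in 21-day crizotinib, so its difference was larger at 21 days (-0.86) than at 24 hours (-0.53). RRN3, the initiation factor through which growth signals are known to act on polymerase I, measured 7.50, 7.06, 7.92 and 8.10 in the same order. It was low in the 24-hour crizotinib array alone, and its 21-day crizotinib value was the highest of the 4 arrays.

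The box C/D ribonucleoproteins carry the enzyme for 2'-O-methylation of ribosomal RNA. All 3 members were lower than their own control in both pairs, against 32.3% of features, with medians of -0.71 and -0.57. FBL, the methyltransferase fibrillarin, measured 9.10 in vehicle, 8.39 in 24-hour crizotinib, 9.28 in the 21-day control and 8.26 in 21-day crizotinib. Its difference was 1.64-fold at 24 hours and 2.04-fold at 21 days, the largest 21-day difference of any member. NOP56 had the opposite order: it measured 8.92, 7.83, 9.37 and 8.99, and was 2.13-fold lower at 24 hours but 1.30-fold lower at 21 days. NOP58, the partner of NOP56 in the core of the particle, measured 9.90, 9.39, 10.03 and 9.47, with similar differences of -0.51 and -0.57. Against the vehicle array the 21-day difference of NOP56 turned to 0.07.

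The box H/ACA ribonucleoproteins, which convert uridine to pseudouridine, parted. DKC1, the pseudouridine synthase dyskerin, measured 9.02 in vehicle, 8.43 in 24-hour crizotinib, 9.36 in the 21-day control and 8.70 in 21-day crizotinib. It differed by -0.59 and -0.66, and the core protein NHP2 by -0.49 and -0.59. The small core protein NOP10 measured 9.30, 9.15, 9.21 and 9.35, and GAR1, the last of the core proteins, 6.45, 6.36, 6.18 and 5.92. For NOP10 the 21-day crizotinib array was the highest of the 4, and for GAR1 the 24-hour crizotinib value lay above the 21-day control, so that its 24-hour difference of -0.08 turned to 0.19 against that array.

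Of the abundant nucleolar proteins, NCL, nucleolin, measured 11.39 in vehicle, 11.07 in 24-hour crizotinib, 11.29 in the 21-day control and 10.83 in 21-day crizotinib. NPM1, the histone chaperone and assembly factor nucleophosmin, measured 8.24, 7.68, 8.28 and 7.62. NPM1 has many pseudogene copies whose transcripts can share probe signal, so its values are uncertain. DDX21, an RNA helicase that is known to link polymerase I and ribosomal RNA processing, differed by -0.77 and -0.42. All 3 had both crizotinib arrays below both untreated arrays, as had 20.9% of features.

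The small-subunit processome, the large particle that forms on the nascent transcript, had medians of -0.44 at 24 hours and -0.39 at 21 days. In each pair 12 of its 13 members were below 0, against 49.9% and 51.4% of features. UTP20, a very large scaffold protein, measured 8.31 in vehicle, 7.93 in 24-hour crizotinib, 8.39 in the 21-day control and 7.47 in 21-day crizotinib. HEATR1, which joins transcription to the first processing steps, measured 8.72, 8.20, 8.65 and 7.93. Both were lowest in the 21-day crizotinib array. Partners of HEATR1 in the same subcomplex differed by less at 21 days: UTP4 by -0.62 and then -0.23, WDR43 by -0.43 and then -0.29, and UTP15 by -0.29 and then -0.41. WDR3 had the largest 24-hour difference of the group, -0.83, followed by IMP4, which works with IMP3 on the U3 RNA, at -0.78.

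IMP3 and DDX10 stood at the other end of the group. IMP3 measured 5.52 in vehicle, 5.62 in 24-hour crizotinib, 5.58 in the 21-day control and 5.75 in 21-day crizotinib, so that its untreated arrays were the lower ones, unlike those of IMP4. The helicase DDX10 measured 7.26 in vehicle, 7.16 in 24-hour crizotinib, 7.997 in the 21-day control and 7.36 in 21-day crizotinib, so its 21-day control stood apart, 0.74 above vehicle. Its 21-day difference of -0.64 turned to 0.10 when the vehicle array was the control. NOP14 and NOC4L, whose yeast counterparts bind each other, differed by -0.24 and -0.53 at 24 hours, by -0.19 and -0.65 at 21 days. The U3 protein RRP9 was at -0.58 and -0.23, and UTP14A at -0.44 and -0.41.

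The late factors of the small subunit had medians of -0.43 and -0.39. None of the 5 was 1.5-fold lower at 21 days, against 11.2% of features, but BYSL, 1.498-fold lower, and LTV1, 1.47-fold lower, were close to it. BYSL, a factor that escorts the particle out of the nucleolus in yeast, measured 6.34 in vehicle, 5.53 in 24-hour crizotinib, 6.68 in the 21-day control and 6.10 in 21-day crizotinib. RRP12, an export factor in yeast, measured 8.18, 7.75, 8.44 and 8.80. RRP12 was thus lowest in one crizotinib array and highest in the other, a 21-day difference of 0.36 that was the highest of any member. NOB1, the nuclease that makes the final cut of the small-subunit RNA, differed by -0.39 in both pairs, TSR1 by -0.43 and -0.30, and LTV1 by -0.26 and -0.55.

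Large-subunit assembly factors had the largest single differences at 24 hours. All 19 measured members were below 0 in both pairs, against 32.3% of features, with medians of -0.62 and -0.50. At least 1.5-fold lower were 11 at 24 hours (8.75% of features) and 6 at 21 days (11.2% of features). NOC2L, which in yeast forms alternate complexes with other NOC proteins, measured 6.38 in vehicle, 4.94 in 24-hour crizotinib, 6.86 in the 21-day control and 6.10 in 21-day crizotinib. It was 2.71-fold lower at 24 hours, the largest difference of any member, and 1.70-fold lower at 21 days. NOP16 measured 7.87, 6.63, 7.72 and 6.88, which is 2.37-fold and 1.79-fold lower. MRTO4, a relative of the ribosomal stalk protein that holds its place during assembly, measured 8.02, 6.80, 8.40 and 7.74. In NOC2L, NOP16 and MRTO4 the 24-hour crizotinib array was the lowest, and the 21-day crizotinib array the next.

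Within one complex the subunits differed. BOP1, PES1 and WDR12 form the PeBoW complex, which is needed to mature the large-subunit RNA. BOP1 measured 7.94 in vehicle, 6.70 in 24-hour crizotinib, 8.12 in the 21-day control and 7.31 in 21-day crizotinib, and was 2.35-fold lower in the first pair and 1.75-fold in the second. PES1 differed by -0.59 and -0.31. WDR12 measured 7.75, 7.56, 7.82 and 7.55, a difference of -0.19 and -0.28. NOC2L and its relative NOC3L also parted at 24 hours, at -1.44 and -0.33.

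Among the remaining large-subunit factors, NOP2, a methyltransferase of the large-subunit RNA, measured 8.59 in vehicle, 7.66 in 24-hour crizotinib, 9.05 in the 21-day control and 8.49 in 21-day crizotinib. RRP15 measured 7.46, 7.42, 7.64 and 7.16, so that its difference was -0.04 at 24 hours and -0.48 at 21 days. The nucleolar GTPases GNL3, nucleostemin, and GNL3L differed by -0.53 and -0.89 at 24 hours but by -0.17 and -0.30 at 21 days, where their levels were not below vehicle. RRS1, which in yeast helps to place the small ribosomal RNA of the large subunit, was at -0.78 and -0.64, and the helicases DDX56 and DDX18 at -0.77 and -0.63 and at -0.28 and -0.29. WDR74 was at -0.73 and -0.41, RRP1 at -0.62 and -0.18, RRP1B at -0.47 and -0.50, NIP7 at -0.45 and -0.56, and EBNA1BP2 at -0.39 and -0.47.

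**Figure D4:**
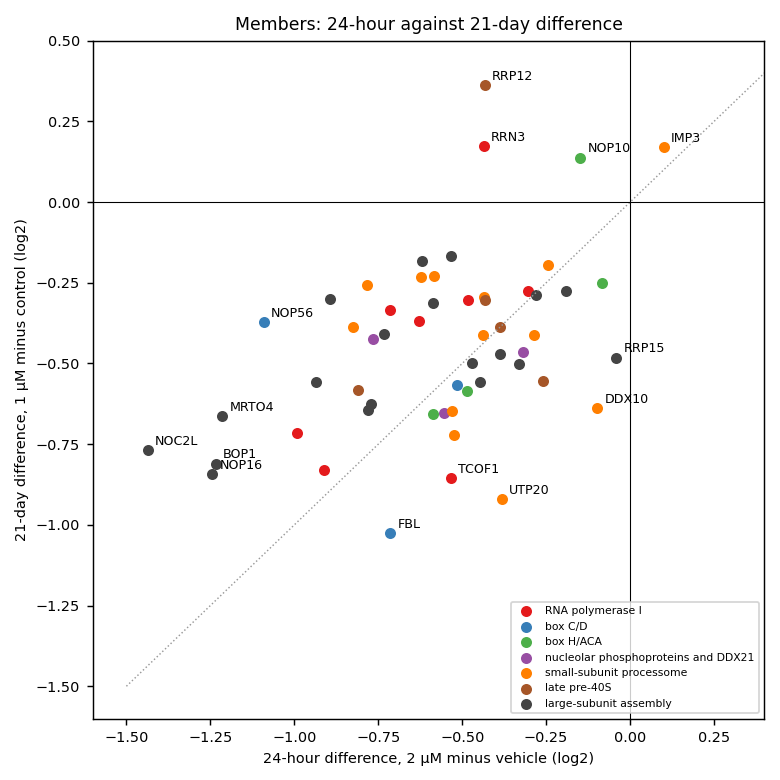
Difference at 24 hours (horizontal axis, log2, 2 µM minus vehicle) against difference at 21 days (vertical axis, log2, 1 µM minus control) for the 55 measured members, coloured by role, with equal differences on the dotted line. Most points lie below 0 on both axes, and 34 lie above the dotted line, where the 24-hour value is the lower one, and FBL, UTP20, TCOF1, DDX10 and RRP15 lie below it.

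The 24-hour difference was the lower one in 34 of 55 members, against 47% of features, and the 21-day difference in 21, against 53%, at doses that differed between the pairs. The pairs also differed in culture, so the order of the differences is not a time course. Neither the level nor the length of a gene went with the size of its difference across members: Spearman's rho with the mean level was 0.04 at 24 hours and 0.10 at 21 days, and with gene length 0.16 and -0.00, over 55 members.

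Other genes of the pathway, apart from export and release factors, were also mostly lower, by smaller medians. These lists were drawn up by function, but like the members with earlier results of these data known. The choice may thus bear on how members and lists compare. Of 34 other processome genes, 27 were below 0 at 24 hours and 30 at 21 days, against 49.9% and 51.4% of features. Their medians were -0.36 and -0.30. PWP2 was lowest at 24 hours (-0.93) and the RNA acetyltransferase NAT10 at 21 days (-0.91), while UTP25 was higher in both (0.58 and 0.65). Of 29 other large-subunit assembly genes, 25 and 26 were below 0, against the same shares of features, with medians of -0.31 and -0.31. BRIX1 was lowest at 24 hours (-0.82) and FTSJ3 at 21 days (-0.85). At 24 hours 7 of the 34 and 2 of the 29 were at least 1.5-fold lower, against 8.75% of features, which the 2 did not exceed. At 21 days 4 and 3 were, near the background of 11.2%. The remaining polymerase I genes, 14 with the subunits shared among polymerases, had medians of -0.22 and -0.18. The shared subunit POLR2H was lowest at 24 hours (-0.88, and 0.03 at 21 days) and the termination factor TTF1 at 21 days (-0.65), while the shared subunit POLR2K was at 0.21 and 0.42. Export and release factors, acting after the nucleolus, had medians close to 0, -0.04 and -0.03 over 10 genes, although EIF6, which keeps the subunits apart, was at -0.92 at 24 hours and the exportin XPO1 at -1.02 at 21 days. SBDS, which evicts EIF6, was at 0.29 and 0.50.

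The RNA exosome, which trims ribosomal RNA precursors, held the larger single differences. Its 13 measured genes had medians of -0.42 and -0.32. EXOSC2 measured 8.75 in vehicle, 7.28 in 24-hour crizotinib, 8.76 in the 21-day control and 7.73 in 21-day crizotinib, 2-fold lower or more in both pairs. EXOSC8 differed by -1.05 and -1.15, and EXOSC9 by -0.53 and -1.24, whereas the nuclease DIS3 differed by 0.08 and 0.26. RNA polymerase III, which makes the smallest ribosomal RNA and transfer RNAs, had medians of -0.20 and -0.13 over 15 genes, with POLR3K at -0.71 and -0.83 but POLR3D at 0.71 at 21 days. Medians of the end products and of translation were -0.34 and -0.29 for 36 cytosolic ribosomal proteins, -0.30 and -0.47 for 30 mitochondrial ribosomal proteins and -0.25 and -0.19 for 20 aminoacyl-tRNA synthetases. Ribosomal protein genes have many processed pseudogenes that can share probe signal, and their extremes at 21 days were RPL22 at -0.97 and RPS20 at 1.10. None of the differences between these lists and the members was tested.

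**Figure D5:**
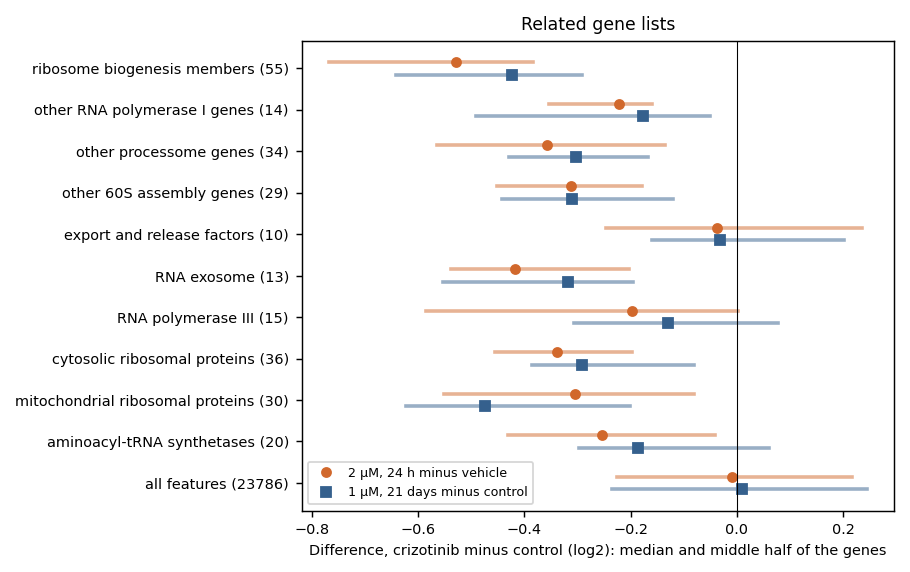
Median log2 difference between crizotinib and its own control (points) with the interquartile range of the genes (bars) for the members and related lists, with the number of measured genes in brackets. Orange circles are the 24-hour pair and blue squares the 21-day pair. The members' 24-hour median of -0.53 is the lowest orange point, mitochondrial ribosomal proteins have the lowest blue one (-0.47), and all features lie at -0.01 and 0.01.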

How the data were processed

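The authors deposited log2 expression values, 1 array per sample, and the submitters' processing notes name RMA, affy 1.36.1 and R 2.15.1. RNA of all cultures was extracted at the same time and biotin-labelled with the WT Plus kit, per the labels' protocols. The array annotation build is not given in the sources used here. Feature IDs are Entrez gene numbers, as they were for all 22458 features the platform's gene table names. That table named 52 members, and RefSeq's gene numbers named GNL3, DDX18 and EBNA1BP2. The members and all gene lists were chosen with earlier results of these data known.

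Differences are crizotinib minus own control. Genes were counted at 2-fold and 1.5-fold where the higher array reached the median of all values (4.96). limma 3.58.1 in R 4.3.3 (lmFit, eBayes, Benjamini-Hochberg, threshold 0.05) was run on 11891 features whose mean passed that level; the crizotinib arrays, 1 each, are taken to vary as the untreated ones do. With the untreated arrays as a control group, the residual was the difference between those arrays, which also differ in culture and duration. With pair as a covariate, the residual was the change of the crizotinib difference between the pairs. Any true effect of dose, duration or culture on that difference therefore counted as error there. Neither residual is a spread among replicates, and the limma p-values rest on these cultures alone. The calculations were tested on simulated data. All 4 values are printed for 25 members: those at least 2-fold different, the 8 lowest and 4 highest of each pair, and the lowest and highest sum of each role. Alternatives changed the control, scaling, filter and variance prior.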

Additional observations from a re-analysis of the deposited data

Results flagged for a closer look

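Members whose difference had opposite signs in the 24-hour and the 21-day pair numbered 3, with 1 array per condition. RRN3, the polymerase I initiation factor, was at -0.44 at 24 hours and 0.17 at 21 days. RRP12, the late small-subunit factor, was at -0.43 and 0.36. NOP10, the box H/ACA core protein, was at -0.15 and 0.14. The difference between the pairs was not tested, and dose, duration and culture differ together between them.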

How the results depend on the processing

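Both medians stayed below 0 under every alternative run. With the other untreated array as control the 24-hour median moved from -0.53 to -0.69 and the 21-day median from -0.42 to -0.28, and with the mean of the untreated arrays the 24-hour median was -0.63. The 24-hour count at least 2-fold lower went from 5 to 11 with the other untreated array and to 8 with the mean, while the 21-day count went from 1 to 0 with the other untreated array, the mean, or arrays centred on their median. The 21-day count at least 1.5-fold lower went from 17 to 10 with the mean. Of the 25 members given with all array values, 3 changed sign. Against the vehicle array, the 21-day differences of DDX10 and NOP56 turned from -0.64 to 0.10 and from -0.37 to 0.07. The 24-hour difference of GAR1 turned from -0.08 to 0.19 against the 21-day control and to 0.05 with the mean. The centring shifted the pairs by 0.03 and -0.06. Leaving out the 3 members named through RefSeq, chosen after seeing the data, gave medians of -0.53 and -0.44. limma called 0 members with the pair as a covariate or without it, and 0 in each fit without the level filter, with an intensity-dependent prior and with centring. Signal over background is unknown here, so differences of low values such as IMP3 may be compressed.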
